A study of Mus musculus with 80 samples.

Results

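The comparison set the liver against brown adipose tissue (BAT), the fat that makes heat, in wild-type (WT) mice. Its members were chosen by their labels alone, as the 5 libraries labelled WT liver and the 5 labelled WT BAT, 10 of the 80 libraries of the series. The mice were C57BL/6J males, homozygous wild type at the loci that the study deleted. They had been kept at 30 °C from birth, and when 10 to 12 weeks old they went to room temperature and onto high-fat diet for 3 weeks. Tissue was taken after food had been withheld for 2 to 3 h, so both groups share diet, temperature history and fasting state. FGF21 KO mice, which lack the Fgf21 gene and otherwise had the same treatment, gave a second set of 5 liver and 5 BAT libraries that is used only where it is named. Poly(A) RNA was sequenced from whole tissue, so fewer cells of a type and less RNA per cell cannot be told apart. Whether a liver and a BAT library came from the same mouse is not given in the labels, and libraries of the 2 tissues were numbered in separate blocks, so any batch that follows the tissue cannot be told apart from it. The methods describe 5 mice per genotype, while the labels name no mouse for a library, and p-values measure the spread between these libraries.

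Both tissues take up fatty acids and burn them in mitochondria, but to different ends. Hepatocytes, the main cells of the liver, turn acetyl-CoA into ketone bodies for other organs, make glucose, cholesterol, bile acids, urea and lipoproteins, and secrete most plasma proteins. Brown adipocytes store triglyceride in many small droplets, and uncoupling protein 1 (UCP1) lets protons back across their inner mitochondrial membrane, so that oxidation yields heat in place of ATP. Several steps of these pathways are served by pairs of related genes, 1 of which is known as the liver form and the other as a form of muscle and fat.

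The start regions of a few of the genes that set the tissues apart are shown first, beside 3 short motifs that were counted in all promoters. GTTAAT and AAGTCCA are parts of sites bound by regulators known from liver, and AGGTCA is the core element shared by many nuclear receptors. Motifs were searched on both strands, and overlap between motifs was allowed. Each line gives the 150 bases before a RefSeq transcript start (GRCm38.p6), 5′ to 3′ on the gene's own strand, with matches in capitals. The first is from albumin, the main plasma protein, and the next from Serpina1e, an alpha-1-antitrypsin gene. Fabp1 codes for the fatty acid binding protein of liver, Ucp1 for the uncoupler of BAT, and Cox8b for a subunit of cytochrome c oxidase in muscle and brown fat.
Alb, chr5:90460720-90460869, plus strand: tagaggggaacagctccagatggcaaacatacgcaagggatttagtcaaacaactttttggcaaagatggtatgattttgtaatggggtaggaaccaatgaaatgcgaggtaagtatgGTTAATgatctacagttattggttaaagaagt
Serpina1e, chr12:103956898-103957047, minus strand: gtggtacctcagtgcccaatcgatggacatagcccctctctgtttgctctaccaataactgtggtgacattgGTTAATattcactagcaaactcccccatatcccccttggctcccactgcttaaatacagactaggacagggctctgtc
Fabp1, chr6:71199729-71199878, plus strand: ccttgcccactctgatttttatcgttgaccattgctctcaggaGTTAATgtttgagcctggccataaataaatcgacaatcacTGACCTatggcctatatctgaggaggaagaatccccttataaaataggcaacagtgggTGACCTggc
Ucp1, chr8:83290198-83290347, plus strand: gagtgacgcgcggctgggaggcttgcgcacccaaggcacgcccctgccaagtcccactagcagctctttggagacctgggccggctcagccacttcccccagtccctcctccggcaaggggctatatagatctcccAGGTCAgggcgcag
Cox8b, chr7:140900447-140900596, minus strand: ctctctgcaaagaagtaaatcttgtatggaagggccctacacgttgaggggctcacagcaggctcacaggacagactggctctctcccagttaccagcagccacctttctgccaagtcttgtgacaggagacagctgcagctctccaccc

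The windows of Alb, Serpina1e and Fabp1 each held GTTAAT, that of Fabp1 also held AGGTCA on the opposite strand at 2 places, and that of Ucp1 held AGGTCA on its own strand. None of the 5 windows held AAGTCCA, and that of Cox8b held no match. The 5 genes were picked by hand and not by a rule, so their matches do not show how common a motif is. Over windows of 300 bases (250 before to 50 after the start), GTTAAT stood in 9.24% of 1819 promoters of genes at least 4-fold higher in liver. It stood in 4.50000% of 1823 promoters of genes at least 4-fold higher in BAT and in 4.81% of the 13728 promoters of all genes tested. For AAGTCCA these shares were 6.87%, 3.13% and 3.60000%, and for AGGTCA 18.1%, 13.1% and 13.1%. The promoter table held 10792 of the 15075 genes tested, so these shares are a description of the genes it holds, and a match is not a bound site.

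Depth was alike in both tissues. The liver libraries held 32089448 to 41371506 counted reads and the BAT libraries 30298956 to 37339630. The 10 most abundant rows took 16.8 to 18.1% of the counts in liver and 30.5 to 32.4% in BAT. Rows of the count tables that carry a sequence identifier in place of a gene symbol held 5.83 to 6.56% of the counts in liver and 20.9 to 22.7% in BAT, and they are counted among the genes tested but not named. Hepatocyte markers were low in BAT. The 20 genes of that list stood at a median of 0.0139% of their liver level, with Cyp2e1 the highest at 1.22%. Of the 19 brown adipocyte markers, Lhx8 had no count in liver, the median was 0.162% of the BAT level, and Elovl3 was higher in liver. Whether the counts of such markers in the other tissue come from its own cells or from traces of another sample was not tested.

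Most genes differed between liver and BAT. Of the 15075 genes tested, 11203 passed an adjusted p of 0.01 in edgeR's quasi-likelihood test, which is 74.3%. Of these, 5515 were higher in liver (36.6% of genes tested) and 5688 higher in BAT (37.7%). With read totals alone as the scale the split was 4142 against 7246 and with upper-quartile factors 4486 against 6824, while the median over all genes moved from -0.01 to -0.33 and -0.24 on the log2 scale. At least 4-fold differences were called for 2044 genes in the liver direction (13.6%) and 2095 in the BAT direction (13.9%). The 5 liver and 5 BAT libraries did not overlap for 10678 genes (70.8%). Levels below are CPM, read counts per unit of library size with TMM factors, given as mean ± SD over 5 libraries. Differences are log2 of liver over BAT ± SE, so that a positive value is higher in liver, and a gene is called where its adjusted p is under 0.01.

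**Figure D1:**
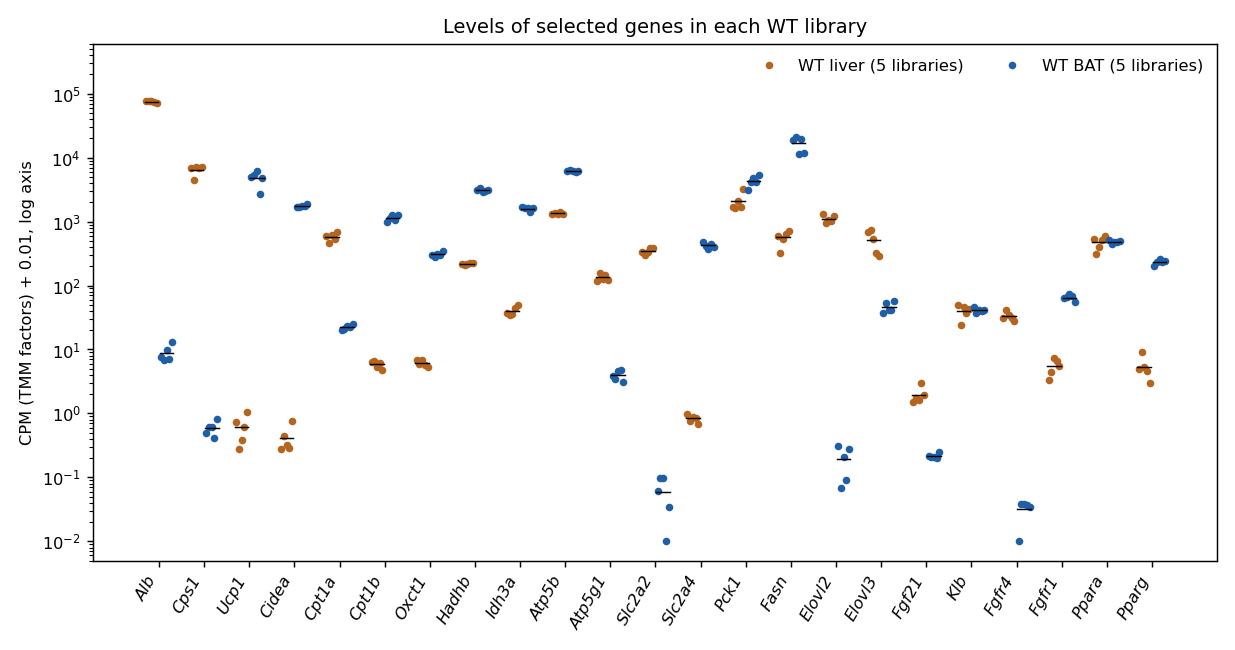
CPM of 23 genes in each of the 5 WT liver libraries (brown points) and 5 WT BAT libraries (blue points), on a log axis after adding 0.01, with the mean of each group as a black line. The groups overlap for Klb and Ppara, and in Pck1 the highest liver library lies above the lowest BAT library.

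Alb and Ucp1, the defining genes of hepatocytes and brown adipocytes, were 8495-fold higher in liver and 7999-fold higher in BAT. Alb lies at chr5:90460897-90476602 and Ucp1 at chr8:83290352-83298452 (GRCm38, GENCODE M21). Alb was counted at 77286, 76076, 77990.1, 75051 and 71339.6 CPM in liver and 7.65, 6.89, 9.801, 7.11 and 12.9 CPM in BAT (log2 difference 13.05 ± 0.28, adjusted p = 8.96e-14). It was the most abundant named gene in liver, and its BAT libraries held 239 to 537 reads each. Ucp1 was counted at 0.717, 0.264, 0.38, 0.605 and 1.03 CPM in liver and 4914, 5355, 6229, 2666 and 4852 CPM in BAT (log2 difference -12.97 ± 0.37, adjusted p = 2.08e-12). Its lowest BAT library was the fourth, and every liver library held between 8 and 30 reads of it. Cidea, which feeds lipid into growing droplets, stood at 0.408 ± 0.203 CPM in liver against 1757 ± 88.2 CPM in BAT (4358-fold lower in liver). All 20 hepatocyte markers were called higher in liver, where 36.6% of all genes tested were, with a median log2 difference of 12.80, or 12.78 with 2 members at 3 counts or fewer in 1 tissue set to their bound. All 11 markers of fat cells in general were called higher in BAT, where 37.7% of all genes were (median -8.47). Of the 19 brown adipocyte markers, 18 were called higher in BAT, and the median of the list was -8.65, or -8.37 with 4 members at 3 counts or fewer in 1 tissue set to their bound. The exception was Elovl3, an elongase of saturated and monounsaturated fatty acids that is used as a marker of active brown fat. Elovl3 was counted at 686, 730.3, 543, 323 and 288 CPM in liver and 37.8, 54.1, 41.3, 41.6 and 58.3 CPM in BAT (log2 difference 3.46 ± 0.27, adjusted p = 5.53e-08). Every liver library lay above every BAT library, and the liver libraries themselves ran from 288 to 730.3 CPM.

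The most abundant named genes of liver after Alb were Trf, the iron carrier transferrin (15240 ± 544 CPM), the protease inhibitors Serpina3k (13070 ± 1580 CPM) and Serpina1e (10350 ± 1723 CPM), the urinary protein Mup3 (10260 ± 1448 CPM) and the apolipoprotein Apoe (9728 ± 1021 CPM). Serpina1, Serpina3 and Mup genes have near-identical copies among which reads could be divided, so their single values are uncertain. In BAT the most abundant named genes were the desaturase Scd1 (58650 ± 5774 CPM) and the fatty acid synthase Fasn (16690 ± 4538 CPM). The fitted log2 differences depend on the prior count where a tissue was at or near 0 counts, so they set no order between such genes and genes with measured folds such as Alb. By these fitted values, and with uncharacterised names (Gm, Rik, LOC) passed over, the leading genes with at least 10 CPM in liver were the pseudogene Cyp2d37-ps, Pklr, Hsd17b6, the vitamin C transporter Slc23a1, Timd2, Nlrp12, the cytochrome P450 Cyp3a25 and Slc17a4. The largest bound among them was that of Cyp3a25 (at least 7060-fold, against 3 counts per BAT library), and the smallest that of Slc17a4 (at least 939.7-fold). In BAT, by the same rule, they were Ucp1, the membrane carbonic anhydrase Car4, Cidea, Trim67, the homeobox gene Hoxc5, the proton channel Otop1, the amino acid transporter Slc36a2 and Lctl. Otop1 was 3085-fold and Slc36a2 2757-fold higher in BAT, while Hoxc5, with no count in any liver library, was at least 147-fold higher.

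Mitochondrial beta oxidation genes were mostly higher in BAT. Of 19 genes, 17 were called higher in BAT and 2 higher in liver, Cpt1a and Eci2 (log2 difference 0.48 ± 0.087, adjusted p = 2.06e-04), with a median of -1.87 and a summed level of 5673 to 6074 CPM in liver and 23190 to 24900 CPM in BAT. Carnitine palmitoyltransferase 1, which loads long-chain fatty acids onto carnitine at the outer membrane, differed by form. Its liver form Cpt1a was counted at 593, 471, 611, 525 and 686 CPM in liver and 20.4, 21.3, 22.9, 22.2 and 24.8 CPM in BAT (log2 difference 4.69 ± 0.11, adjusted p = 3.89e-13). Its muscle form Cpt1b was counted at 6.31, 6.56, 5.32, 6.24 and 4.79 CPM in liver and 986, 1147, 1253, 1045 and 1257 CPM in BAT (log2 difference -7.60 ± 0.13, adjusted p = 1.46e-14). Neither gene's libraries overlapped between the tissues. Of the 2 forms together, counted per length of transcript, Cpt1a made up 97.8% in liver and 0.858% in BAT.

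Inside the mitochondrion, Hadhb, a subunit of the trifunctional protein, stood at 219, 211, 217, 226 and 221 CPM in liver and 3128, 3362, 2931, 3044 and 3088 CPM in BAT (14.2-fold higher in BAT). Acadl, the long-chain acyl-CoA dehydrogenase, was 11.6-fold higher in BAT (232 ± 16.5 CPM in liver against 2697 ± 67.2 CPM in BAT). The spread within each tissue was small beside these differences. Peroxisomal oxidation, which shortens very long and branched chains, leaned to liver: 14 of 21 genes were called higher in liver and 3 in BAT (median 1.17). Over all genes tested, 36.6% were called higher in liver and 37.7% in BAT. Acox2, which oxidizes branched-chain fatty acids and bile acid precursors, stood at 297 ± 20.2 CPM in liver against 1.97 ± 0.674 CPM in BAT, 150.2-fold higher in liver, and Pecr and Crot were 18.1-fold and 16.1-fold higher. Among the 3 higher in BAT were Abcd2, a transporter of very long chains into peroxisomes (9.97-fold), and Crat. Crat, the carnitine acetyltransferase, was counted at 51.8, 41.5, 38.04, 30.9 and 35.3 CPM in liver and 818, 961, 982, 901 and 970.3 CPM in BAT (log2 difference -4.55 ± 0.14, adjusted p = 3.62e-12).

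**Figure D2:**
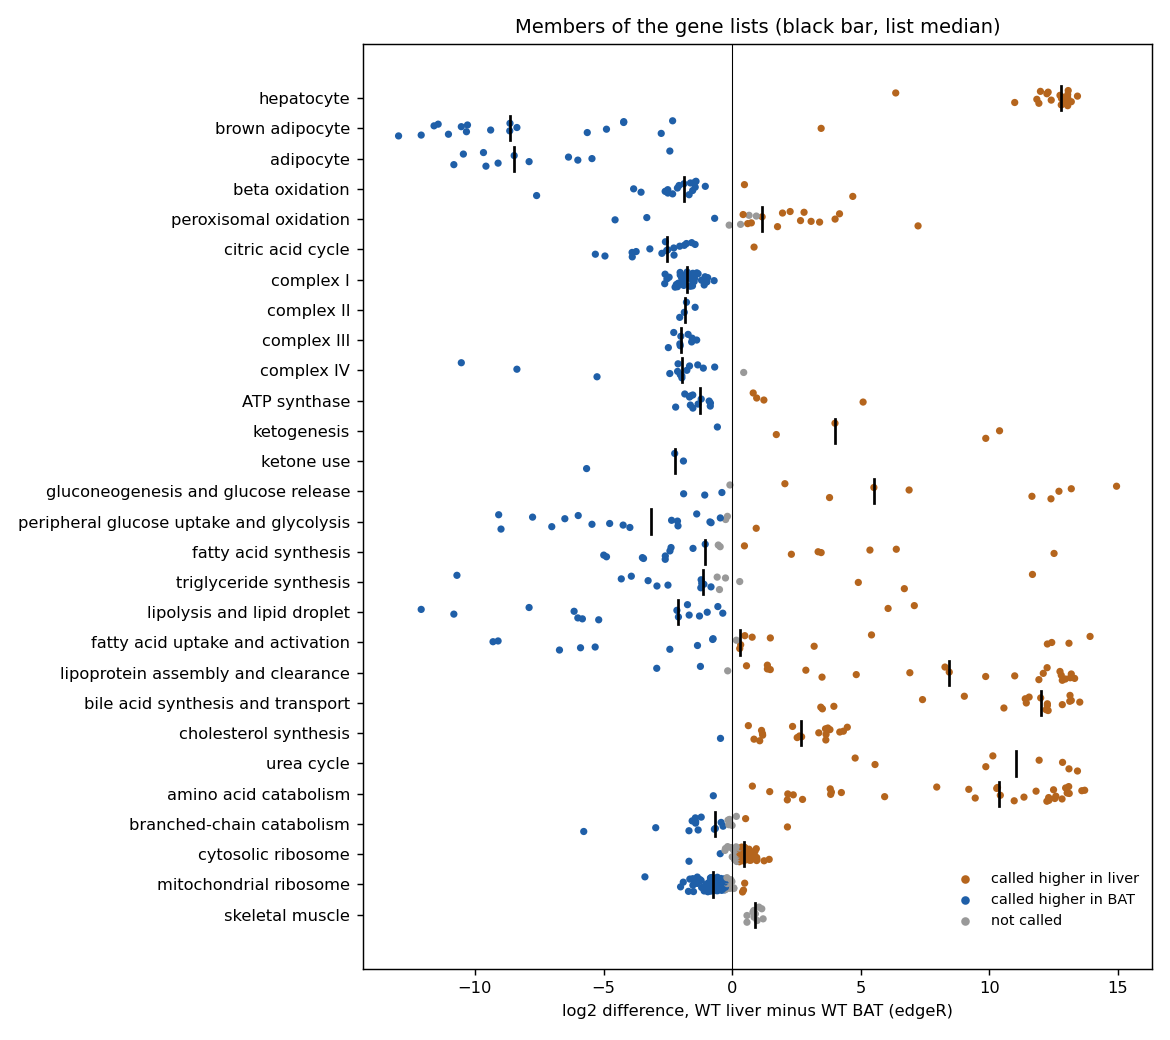
Log2 difference between WT liver and WT BAT for each gene of 28 lists, 1 point per gene, coloured by whether edgeR called it at an adjusted p under 0.01, with the list median as a black bar. Respiratory chain, citric acid cycle and beta oxidation genes lie mostly between 0 and -4, and the lists of hepatocyte, urea cycle and bile acid genes lie mostly beyond 10.

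The respiratory chain was higher in BAT across all complexes. All 36 complex I genes, all 4 of complex II and all 9 of complex III were called higher in BAT, with medians of -1.77, -1.82 and -1.99. The complex I values ran only from -2.62 (Ndufv1) to -0.70 (Ndufa6). In complex IV, 14 of 15 genes were called higher in BAT, and the muscle form Cox6a2, which was under 1 CPM in both tissues, was not called. The forms known from muscle and brown fat, Cox8b and Cox7a1, had the largest differences of the complex. Cox8b was counted at 0.419, 0.429, 0.348, 0.412 and 0.651 CPM in liver and 607, 662, 722, 646 and 708 CPM in BAT (1481-fold higher in BAT), and Cox7a1 stood at 1.16 ± 0.126 CPM in liver against 383 ± 34.5 CPM in BAT (330.4-fold). The other forms of these subunits, Cox8a and Cox7a2, were also higher in BAT, by 4.29-fold and 2.17-fold.

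ATP synthase, of which rodent brown fat is known to hold little beside its respiratory chain, had genes on both sides. Of 16 genes of the enzyme and its inhibitor, 12 were called higher in BAT and 4 higher in liver, Atp5g1, Atp5g3, Atp5j and the inhibitor Atpif1. The summed level of the list was higher in BAT, at 4411 to 5104 CPM in liver and 13030 to 13790 CPM in BAT. Atp5b, the catalytic beta subunit, was counted at 1306, 1385, 1302, 1437 and 1321 CPM in liver and 6150, 6435, 6152, 5894 and 6285 CPM in BAT (4.58-fold higher in BAT). Atp5g1, 1 of 3 genes for the c subunit that forms the proton-driven ring of the enzyme, was counted at 119, 158, 126, 148 and 122 CPM in liver and 3.84, 3.403, 4.53, 4.84 and 3.11 CPM in BAT (log2 difference 5.09 ± 0.14, adjusted p = 1.23e-12). The groups were 34.1-fold apart in the direction opposite to Atp5b. The sister genes code for the same mature c subunit: Atp5g3 was 2.36-fold higher in liver and Atp5g2 1.86-fold higher in BAT. Per length, the 3 genes stood in liver at 27.4 RPKM (CPM per kilobase of transcript) for Atp5g1, 28.3 for Atp5g2 and 155.2 for Atp5g3, and in BAT at 0.803, 52.5 and 65.9. These near-identical copies have processed pseudogenes, among which reads could be divided.

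Citric acid cycle genes were higher in BAT. Of the 18 genes, 17 were called higher in BAT and only Suclg2, the GTP-forming succinyl-CoA ligase subunit, was called higher in liver (log2 difference 0.85 ± 0.064, adjusted p = 4.20e-08). The list median was -2.52. Idh3a, the catalytic subunit of the NAD-dependent isocitrate dehydrogenase, was counted at 36.8, 34.4, 35.8, 43.9 and 49.95 CPM in liver and 1668, 1661, 1638, 1420.4 and 1620.2 CPM in BAT (39.9-fold higher in BAT). Pdk4, the kinase that shuts pyruvate dehydrogenase, stood at 11.3, 7.09, 6.52, 4.97 and 3.25 CPM in liver and 3475, 4335, 3624, 3602 and 2899 CPM in BAT (540.0-fold higher in BAT). For the making of mitochondrial proteins, 61 of 75 mitochondrial ribosomal protein genes were called higher in BAT and 3 in liver (median -0.73), where 37.7% and 36.6% of all genes tested were. Cytosolic ribosomal protein genes lay the other way, with 45 of 65 called higher in liver and 2 in BAT (median 0.46). Leaving out 1 library gave 34 to 47 in liver and 1 to 3 in BAT. Scaled by read totals alone, 22 of these cytosolic genes were called higher in liver and 7 in BAT (median 0.14). No cytosolic ribosomal protein gene differed by 4-fold.

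Among 16 genes of coupling, creatine and mitochondrial dynamics, 8 were called higher in BAT and 3 in liver (median -0.27), where 37.7% and 36.6% of all genes tested were. Ucp3, a relative of Ucp1 known from muscle, was 752-fold higher in BAT (0.199 ± 0.124 CPM in liver against 152 ± 29.6 CPM in BAT). Slc25a4, an ADP/ATP carrier of heart and muscle, was 39.4-fold higher in BAT, and the creatine kinase Ckb 4.74-fold. The enzymes that make creatine were on the liver side, Gatm at 10.1 ± 2.56 CPM in liver against 2.55 ± 0.616 CPM in BAT and Gamt at 107 ± 20.6 CPM in liver against 2.56 ± 0.823 CPM in BAT.

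Ketone body genes were split by direction of use. Bdh1, which interconverts the 2 ketone bodies, was 1350-fold higher in liver, and Slc16a6, an exporter of them, 16.01-fold higher. In all, 4 of 5 ketogenesis genes were called higher in liver, and Acat1, which also acts in ketone use, was 1.49-fold higher in BAT. All 3 genes of ketone use were called higher in BAT. Oxct1, the transferase that activates ketone bodies for oxidation, was counted at 6.79, 5.97, 6.805, 5.798 and 5.34 CPM in liver and 305, 283, 315, 304 and 345 CPM in BAT (50.5-fold higher in BAT). Liver is known to lack this enzyme's activity, and its libraries held the gene at 5.34 to 6.80 CPM.

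Genes of glucose handling were divided between forms of liver and forms of peripheral tissues. Of 13 genes for making and releasing glucose, 9 were called higher in liver and 3 in BAT (median 5.51). The glucose transporter Slc2a2 stood at 346 ± 33.5 CPM in liver and at no more than 3 counts in any BAT library (at least 4302-fold). Fbp1, a phosphatase of glucose synthesis, was 3234-fold higher in liver. Pck1, the cytosolic phosphoenolpyruvate carboxykinase, which serves glucose output in liver and glyceride-glycerol in fat, went the other way. It was counted at 1689, 1643, 2066, 1704 and 3219 CPM in liver and 3079, 4237, 4747, 4134 and 5381 CPM in BAT (log2 difference -1.06 ± 0.20, adjusted p = 2.83e-04). In the fit of all 20 WT libraries its adjusted p was 0.0284, which loses the call. Liver library 5 lay above the lowest BAT library, and the other 4 lay below all BAT libraries. Of 20 genes for peripheral uptake and glycolysis, 17 were called higher in BAT and 1, Slc2a1, in liver (log2 difference 0.94 ± 0.16, adjusted p = 1.17e-04). Slc2a4, the insulin-responsive transporter, was counted at 0.987, 0.759, 0.855, 0.852 and 0.685 CPM in liver and 480.1, 411, 379, 439 and 407 CPM in BAT (507-fold higher in BAT), and Hk2 and Pkm were 129-fold and 90.8-fold higher.

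Of 19 fatty acid synthesis genes, 7 were called higher in liver and 10 in BAT (median -1.04), where 36.6% and 37.7% of all genes tested were. The elongases lay on both sides, with Elovl6 called higher in BAT (log2 difference -2.42) and Elovl1, Elovl2, Elovl3 and Elovl5 in liver. Fasn was counted at 605, 319, 536, 651 and 716 CPM in liver and 19170.2, 21022, 11623, 19703 and 11924 CPM in BAT (log2 difference -4.88 ± 0.27, adjusted p = 1.63e-09). BAT libraries 3 and 5 lay well below the other 3 in Fasn, yet above every liver library. Scd1 was 6.05-fold and Acacb 11.2-fold higher in BAT, and Scd2, the desaturase form of fat and brain, 31.8-fold. Elovl2, which elongates long polyunsaturated fatty acids, was counted at 1318, 943, 1055, 1018 and 1225 CPM in liver and 0.303, 0.0577, 0.202, 0.0811 and 0.265 CPM in BAT (5859-fold higher in liver), and the desaturase Fads2 was 83.6-fold higher.

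Storage and release of triglyceride were mostly BAT-sided. Of 18 triglyceride synthesis genes, 11 were called higher in BAT and 3 in liver (median -1.14), and of 17 genes of lipolysis and the droplet 15 were called higher in BAT and 2 in liver (median -2.09). Over all genes tested, 37.7% were called higher in BAT and 36.6% in liver. Gpd1, which makes glycerol 3-phosphate from glycolysis, was 15.1-fold higher in BAT (419 ± 35.5 CPM in liver against 6333 ± 647 CPM in BAT). Plin1, the coat protein that gates lipolysis, was counted at 0.538, 0.297, 0.443, 0.495 and 0.342 CPM in liver and 699, 799.5, 775, 841 and 786 CPM in BAT (1809-fold higher in BAT), and Cidec was 238-fold higher. Among members on the liver side, Cideb, which acts in lipoprotein lipidation, stood at 262 ± 27.01 CPM in liver against 3.905 ± 0.511 CPM in BAT (67.01-fold higher in liver) and the droplet-forming Fitm1 at 12.1 ± 3.13 CPM in liver against 0.085 ± 0.045 CPM in BAT. Glycerol channels were exchanged: Aqp9 was 3289-fold higher in liver and Aqp7 1665-fold higher in BAT. For uptake and activation of fatty acids, 11 of 21 genes were called higher in liver and 9 in BAT, where 36.6% and 37.7% of all genes tested were, and the list median of 0.30 became -0.02 with read totals as the scale. Fabp1 was 8786-fold higher in liver, while Fabp3 and Fabp4 were 629-fold and 549-fold higher in BAT. Lpl, the lipase that frees fatty acids from plasma triglyceride at the vessel wall, was counted at 17.2, 13.7, 19.1, 17.3 and 19.995 CPM in liver and 1418, 1544, 2176, 1679 and 2347 CPM in BAT (105-fold higher in BAT).

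Export pathways of the hepatocyte were on the liver side almost without a member on the other. Of 25 genes of lipoprotein assembly and clearance, 22 were called higher in liver and 2 in BAT, Angptl4, an inhibitor of lipoprotein lipase (log2 difference -1.23 ± 0.13, adjusted p = 1.71e-06), and the sorting receptor Sort1 (log2 difference -2.93 ± 0.084, adjusted p = 2.06e-12). Apob, the backbone of very low density lipoprotein, stood at 6693 ± 762 CPM in liver against 0.732 ± 0.265 CPM in BAT. All 19 bile acid genes were called higher in liver, with a median of 12.00, or 11.08 with 4 members at 3 counts or fewer in 1 tissue set to their bound. Slc10a1, which takes bile acids up from blood, stood at 916 ± 63.4 CPM in liver against 0.0732 ± 0.0604 CPM in BAT, and Abcb11, which pumps them into bile, was 9335-fold higher. Cholesterol synthesis differed by smaller steps, with 19 of 20 genes called higher in liver, a median of 2.66 and Pmvk alone called higher in BAT (log2 difference -0.45 ± 0.12, adjusted p = 0.00399). Pmvk lost its call with BAT library 1 or 4 or liver library 2 or 5 left out, at adjusted p from 0.011 to 0.015. All 20 coagulation genes and all 31 genes of complement and the acute phase were called higher in liver, with a coagulation median of 12.61, or 12.15 with 2 members at 3 counts or fewer in 1 tissue set to their bound. The median of complement and the acute phase was 12.03, or 11.77 with 5 members at 3 counts or fewer in 1 tissue set to their bound. The largest folds in these lists divide by BAT levels as low, beside liver, as those of the hepatocyte markers given above.

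Nitrogen disposal genes were higher in liver. All 8 urea cycle genes were called higher in liver, with a median of 11.04, or 10.00 with 1 member at 3 counts or fewer in 1 tissue set to its bound. Of 34 genes of amino acid breakdown, 33 were called higher in liver (median 10.38). Cps1, which fixes ammonia in the first step of the cycle, was counted at 6938, 4551, 7147, 6773 and 7038 CPM in liver and 0.48, 0.606, 0.605, 0.406 and 0.819 CPM in BAT (log2 difference 13.43 ± 0.24, adjusted p = 1.97e-14). Liver library 2 was the low one in Cps1. Only Sdsl, a serine dehydratase-like gene, was called higher in BAT (log2 difference -0.73 ± 0.13, adjusted p = 1.28e-04). Branched-chain amino acids, which liver is known to pass on for oxidation elsewhere, were the exception: 13 of 21 genes were called higher in BAT, 2 in liver and 6 in neither (median -0.65). Over all genes tested, 37.7% were called higher in BAT and 36.6% in liver. With read totals as the scale, 18 of the 21 were called higher in BAT and 1 in liver. Bcat2, the mitochondrial aminotransferase of the first step, was 3.198-fold higher in BAT (27.1 ± 3.99 CPM in liver against 86.9 ± 12.6 CPM in BAT). Both regulators of the branched-chain dehydrogenase differed: its inhibiting kinase Bckdk was counted at 12.2, 14.7, 15.2, 16.7 and 14.7 CPM in liver and 116, 117, 117, 109.8 and 116 CPM in BAT (7.84-fold higher in BAT), and its activating phosphatase Ppm1k was 4.45-fold higher in liver (116 ± 38.05 CPM in liver against 25.96 ± 6.13 CPM in BAT).

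Of 40 nuclear receptors and regulators, 16 were called higher in liver and 20 in BAT, shares not far from the 36.6% and 37.7% of all genes tested. The xenobiotic receptor Nr1i2 and the bile acid target Nr0b2 stood at 83.2 ± 2.29 CPM and 32.4 ± 13.04 CPM in liver and at 3 counts or fewer in every BAT library. In BAT the factors Ebf2, Ebf3 and Lhx8, the first of them known to set brown fat identity, were at least 733-fold, at least 617-fold and at least 25.6-fold higher. Ppara, the receptor that switches on fatty acid oxidation in both tissues, was counted at 525, 307, 399, 520.2 and 606 CPM in liver and 508, 442, 472, 483 and 491 CPM in BAT (log2 difference -0.023 ± 0.15, adjusted p = 0.891). Its groups overlapped, and its direction changed with the scaling. Its relative Pparg, the regulator of fat cell formation, was 43.7-fold higher in BAT (5.37 ± 2.27 CPM in liver against 234 ± 21.8 CPM in BAT).

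FGF21, the hormone whose gene the study deleted, acts through FGF receptors with the co-receptor beta-klotho. Fgf21 itself was counted at 1.52, 1.75, 1.61, 2.94 and 1.95 CPM in liver and 0.202, 0.202, 0.202, 0.189 and 0.241 CPM in BAT (log2 difference 3.22 ± 0.24, adjusted p = 3.82e-08), low in both, with every liver library above every BAT library. Klb, the gene of beta-klotho, was counted at 49.4, 24.3, 46.2, 37.1 and 43.6 CPM in liver and 46.6, 37.8, 40.9, 40.4 and 41.97 CPM in BAT (log2 difference -0.05 ± 0.15, adjusted p = 0.771). Its groups overlapped, with liver library 2 the lowest of all 10. Of the 4 FGF receptor genes, Fgfr1 was called higher in BAT and Fgfr2, Fgfr3 and Fgfr4 in liver (log2 differences 2.09 and 3.999 for Fgfr2 and Fgfr3). Fgfr4 was counted at 30.9, 42.2, 34.4, 31.4 and 27.97 CPM in liver and 0, 0.0288, 0.0288, 0.0271 and 0.0241 CPM in BAT (at least 415-fold higher in liver). Fgfr1, the receptor through which FGF21 is known to act in fat, was counted at 3.38, 4.45, 7.25, 6.59 and 5.55 CPM in liver and 63.2, 65.2, 74.5, 67.6 and 54.3 CPM in BAT (log2 difference -3.58 ± 0.18, adjusted p = 5.89e-10). Among the 35 hormone receptors and ligands tested, 18 were called higher in liver and 15 in BAT, where 36.6% and 37.7% of all genes tested were. The deiodinases were divided: Dio1 stood at 210.2 ± 8.35 CPM in liver against 0.0377 ± 0.0238 CPM in BAT and Dio2, which makes active thyroid hormone in brown fat, at 0.0428 ± 0.0278 CPM in liver against 98.3 ± 74.4 CPM in BAT, with BAT libraries from 22.7 to 182 CPM. The IGF binding proteins Igfbp1 and Igfbp2 were at least 787-fold and at least 3228-fold higher in liver.

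**Figure D3:**
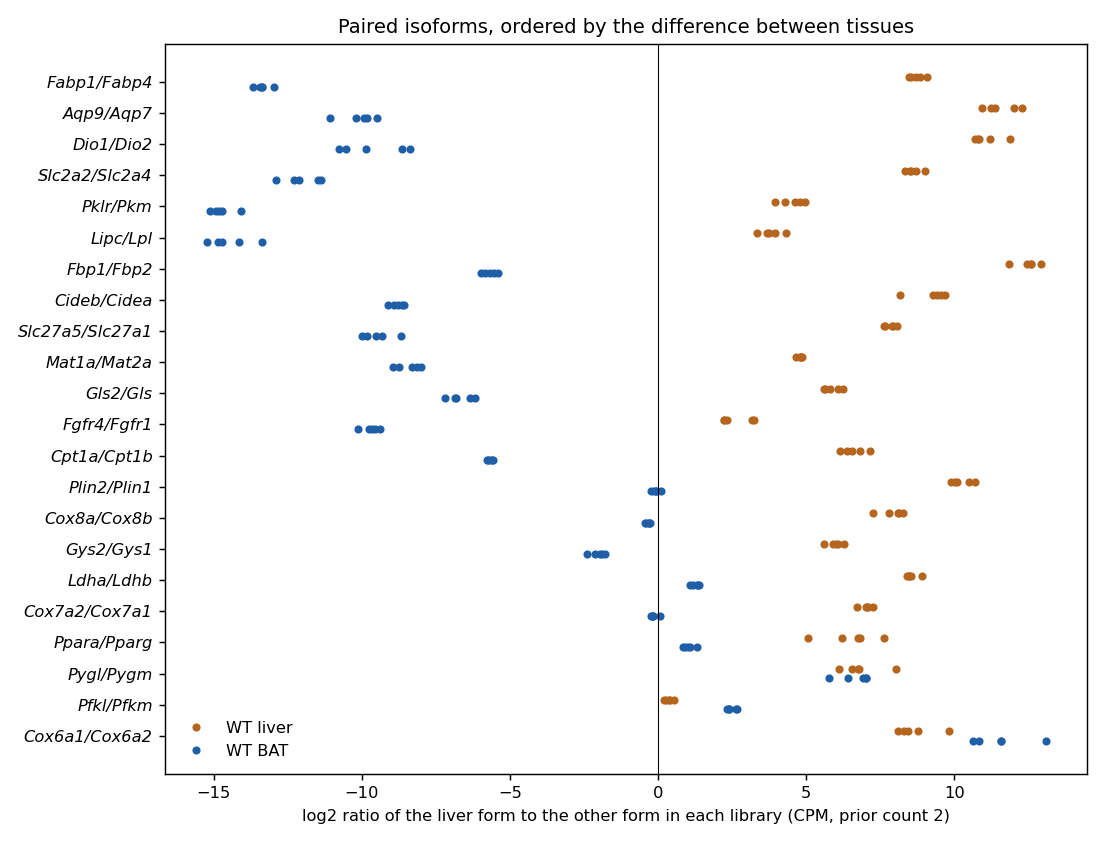
Log2 ratio of the form known from liver to the other form in each of the 5 WT liver (brown) and 5 WT BAT (blue) libraries, 1 row for each of 22 pairs of genes, ordered by the difference between tissues. Only Pygl/Pygm overlaps between the tissues, and Pfkl/Pfkm and Cox6a1/Cox6a2 have the lower ratio in liver.

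The exchange of related forms was measured inside each library for 24 pairs, as the log2 ratio of the liver form to the other form, which does not depend on the scaling of the library. The ratio was higher in liver for 22 pairs, and the libraries did not overlap for 23. These 23 gave p = 0.00794 in exact two-sided permutation tests with n = 5 against 5, the smallest p that this design allows (adjusted over the 24 pairs, 0.00828). Groups that do not overlap fix this p, and the pairs were chosen with earlier results of these data known. Of single genes tested, 70.8% did not overlap either. Differences ran from -2.84 for Cox6a1/Cox6a2 to 22.08 for Fabp1/Fabp4, with a median of 12.88. With a prior count of 0.5, Dio1/Dio2 (22.72) and Aqp9/Aqp7 (22.43) lay above Fabp1/Fabp4 (22.20). In 16 pairs the 2 forms were called in opposite directions. The remaining 8 were not exchanges in this sense. Cox7a2/Cox7a1 (difference 7.17), Cox8a/Cox8b (8.27), Plin2/Plin1 (10.33) and Ldha/Ldhb (7.28) had both forms called higher in BAT, the second by more, although Plin2 itself differed by only -0.36 and lost its call with 5 of the 10 libraries left out in turn. Mat2a, of the pair Mat1a/Mat2a, was as close (-0.38) and lost its call likewise with 5 left out. In liver, per length, Ldha made up 99.5% of the lactate dehydrogenase pair and in BAT 53.4%. Pfkl, the phosphofructokinase named for liver, was 18.9-fold higher in BAT and Pfkm 4.298-fold, and of the pair Pfkl made up 39.1% in liver and 73.8% in BAT (difference -2.12). Glycogen phosphorylase was the pair that did not differ beyond its spread (Pygl/Pygm, exact permutation p = 0.643 with n = 5 per tissue): Pygl, the liver form, made up 98.03% in liver and 97.9% in BAT. In Cox6a1/Cox6a2 and Ppara/Pparg 1 form was not called, and the other was higher in BAT. Where the lower form had 3 counts or fewer in a tissue, as for Pklr, Slc2a2, Fgfr4, Dio1 and Lipc in BAT and Dio2 in liver, the ratio depends on the prior count of 2 that was added.

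Other cell types differed along with the parenchyma. All 6 Kupffer cell markers were called higher in liver. Clec4f, the lectin particular to these resident macrophages, was counted at 153, 134, 157, 79.8 and 111 CPM in liver and 0, 0, 0, 0 and 0.0241 CPM in BAT (at least 1575-fold higher). Of 8 general macrophage markers 7 were called higher in liver, with summed levels of 193 to 428 CPM in liver and 113 to 139.6 CPM in BAT. General endothelial markers were the reverse, all 8 called higher in BAT (median -2.64). Cdh5, the cadherin of endothelial junctions, was counted at 30.2, 19.03, 34.9, 14.9 and 19.1 CPM in liver and 210.0, 207, 208, 181 and 162 CPM in BAT (8.19-fold higher in BAT), while all 6 markers of liver sinusoidal endothelium were called higher in liver. Of 10 genes listed for stromal and stellate cells, 7 were called higher in BAT, among them fibrillar collagens, pericyte markers and Des (log2 difference -3.38). The 2 called higher in liver were Lrat and Reln. Over all genes tested, 37.7% were called higher in BAT and 36.6% in liver. Of 5 cholangiocyte markers tested, 4 were called higher in liver, among them Spp1 and Epcam. The haemoglobin genes Hba-a2 and Hbb-bs were 1.78-fold and 1.37-fold higher in BAT, and Alas2, the first enzyme of haem synthesis in red cells, was 29.7-fold higher in liver. Lymphocyte markers were low in both tissues, with a summed level of 3.42 to 7.29 CPM in liver and 2.797 to 3.89 CPM in BAT and 1 of 7 called, Ms4a1 (log2 difference 1.36 ± 0.27, adjusted p = 3.80e-04).

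**Figure D4:**
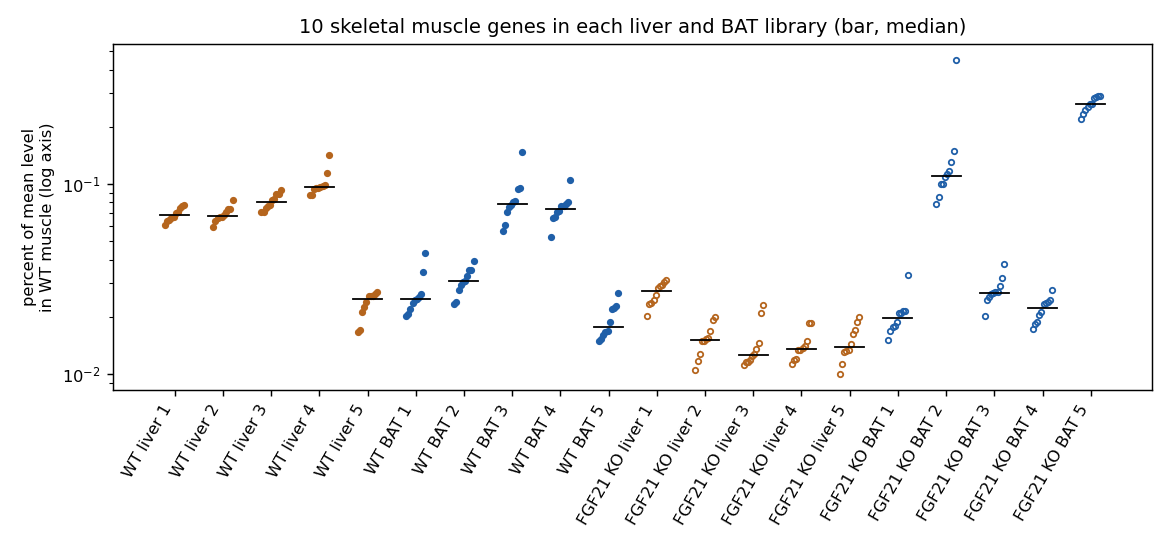
Level of each of 10 skeletal muscle genes in percent of its mean level in the 5 WT muscle libraries, on a log axis, for the WT (filled) and FGF21 KO (open) liver and BAT libraries, with the median of each library as a bar. WT liver libraries 1 to 4 and WT BAT libraries 3 and 4 lie higher than the other WT libraries.

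Skeletal muscle genes were present at trace level in both tissues. The 10 genes of the list, among them the fast fibre gene Myh4, the skeletal actin Acta1 and the creatine kinase Ckm, stood at a median of 0.0689, 0.0681, 0.0801, 0.0962 and 0.0249% of their WT muscle level in the 5 liver libraries. In the 5 BAT libraries the medians were 0.0247, 0.0308, 0.0785, 0.0741 and 0.0177%. Liver library 5 and BAT libraries 1, 2 and 5 were low, and the groups overlapped. The mean of log2 (CPM + 0.1) over the list was 2.82 ± 0.80 in liver and 2.17 ± 0.92 in BAT (SD, n = 5), a difference of 0.65 with p = 0.310 in an exact two-sided permutation test. None of the 10 genes was called by edgeR at an adjusted p under 0.01 (median log2 difference 0.88), but this count turns on single libraries. Leaving out liver library 5 gave 3 calls higher in liver, leaving out BAT library 4 gave 2, and leaving out BAT library 3 gave 1. In the FGF21 KO libraries the liver medians were 0.0126 to 0.0272% and 2 of the BAT libraries stood at 0.110 and 0.264%, so the muscle genes lay on the BAT side there. Among the 111 genes tested that were over 100 times higher in WT muscle than in both tissues, 10 were called higher in liver and 30 in BAT, of which 2 and 6 at 4-fold. Over all genes tested the shares were 36.6% and 37.7%, and 13.6% and 13.9% at 4-fold. Among those at 4-fold in liver was Neb, the giant filament protein nebulin, picked here after its values were seen. It was counted at 39.8, 27.5, 29.1, 28.3 and 20.03 CPM in liver and 2.96, 2.596, 5.02, 4.49 and 2.09 CPM in BAT (log2 difference 3.08 ± 0.24, adjusted p = 6.53e-08). In the fit of all 20 WT libraries, which include muscle, its adjusted p was 0.011. BAT libraries 3 and 4 were its highest BAT libraries, as for the other muscle genes, and liver library 1 its highest liver library. With the muscle score of each library as a covariate, 5318 genes were called higher in liver and 5468 in BAT, and 3 of the 10 muscle genes in liver. Without BAT libraries 3 and 4 and liver library 4, 4790 and 4976 were, and 8 of the 10 muscle genes in liver (list median 1.57). Liver library 3 was kept there, although its median of 0.0801% lay above those of both BAT libraries left out.

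**Figure D5:**
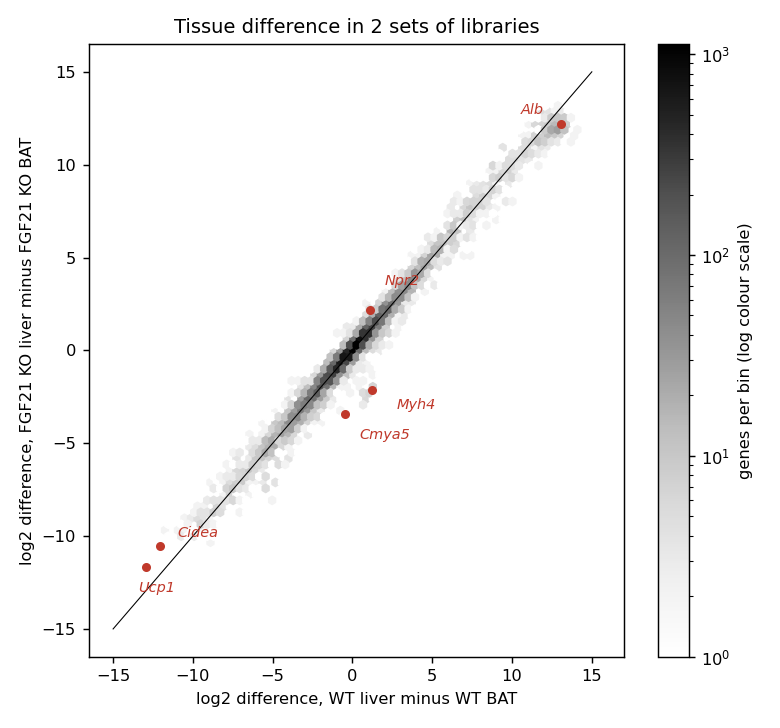
Log2 difference between liver and BAT in the FGF21 KO libraries against that in the WT libraries for the 14946 genes tested in both, as counts of genes per bin, with the line of equal values and 6 genes marked in red. Most genes lie along the line, and the muscle genes Myh4 and Cmya5 lie below it.

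The same tissues were compared in the FGF21 KO libraries, which share no library with the WT comparison. Of the 11127 genes called in WT and tested there, 11075 had the same direction and 10313 were also called in it. Of 4080 genes with at least 4-fold calls in WT, 3820 had 4-fold calls in the same direction. The 2 sets of differences had a Pearson r of 0.988 across genes, and genes are no independent replicates. The interaction of tissue and genotype was called for 4 of 15639 genes (0.0256%), and 1574 had an unadjusted p under 0.05. DESeq2 called 57. Leaving out 1 library left between 0 and 12 calls, with 12 without WT liver library 2 and 0 without any 1 of WT BAT libraries 1 to 4, so the 4 calls turn on single libraries. Of the 4, 1 carries no gene symbol. The levels that follow are CPM on the scale of all 20 libraries. Cidea differed by -12.09 in WT and -10.54 in FGF21 KO (interaction 1.53 ± 0.24, edgeR adjusted p = 0.00975). Its level in BAT was 1653 to 1871 CPM in WT and 1560 to 1960 CPM in FGF21 KO, while in liver it was 0.272 to 0.747 and 0.995 to 1.43 CPM, without overlap. Npr2, the receptor of C-type natriuretic peptide, was at 68.1 to 74.7 CPM in WT liver and 83.6 to 133 CPM in FGF21 KO liver, and at 27.4 to 33.9 CPM in WT BAT and 21.8 to 26.6 CPM in FGF21 KO BAT, without overlap in either tissue (interaction 1.03 ± 0.14, adjusted p = 0.00621). Cmya5, a gene of striated muscle, had an interaction of -2.93 ± 0.45 (adjusted p = 0.00975). It was at 1.05 to 4.13 CPM in WT liver and 0.256 to 1.13 CPM in FGF21 KO liver. In BAT it was at 2.61 to 4.66 CPM in WT and 4.27 to 9.68 CPM in FGF21 KO. The part of the muscle genes above in its interaction was not tested apart from the muscle score. With the muscle score as a covariate no interaction was called by edgeR. Fgf21 was at 0 to 0.0648 CPM in the FGF21 KO liver libraries, against 1.54 to 2.96 CPM in WT liver, as their labels say.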

How the data were processed

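RNA of whole liver and BAT was poly(A) selected, made into stranded libraries and sequenced in read pairs. The authors aligned reads with STAR to mm10 (GRCm38) and counted them per gene with HTSeq on the UCSC known gene annotation, and they deposited raw counts per gene and library. Whether the counting used strand is not given in the sources used here, so reads of overlapping and antisense genes may not be told apart. A row with no gene name, which held at most 15 counts per library, was left out.

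The 5 WT liver and 5 WT BAT libraries were compared with edgeR 4.0.16 (TMM factors, quasi-likelihood F test, Benjamini-Hochberg adjustment over all genes tested) in R 4.3.3, after a filter that kept genes whose counts summed to over 75 with a maximum over 15 (the study's limit of 10 libraries at 0 removes nothing here). The script was tested on simulated data. A fold against a tissue at 3 counts or fewer in every library is a lower bound, taken against 3 counts in each of its libraries. Such bounds cover counting error only. Pairs of forms were compared as log2 ratios with a prior count of 2, by exact permutation tests in SciPy 1.17.1. DESeq2 1.42.0 and other scalings, filters and sets of libraries were alternatives. No 2 libraries of a tissue held identical values or agreed within sampling noise.

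Genes were named by a rule: the 8 most abundant genes of each tissue, the 8 largest differences each way with at least 10 CPM in the higher tissue, both forms of each pair, up to 3 called members of each list on the side of most of its calls and 2 on the other, the skeletal muscle list, Fgf21, Klb and Ucp1, and up to 5 genes each way of the interaction. Atp5g2, Atp5j, Atpif1, Cyp2e1, Elovl1, Elovl5, Elovl6, Fgfr2, Fgfr3, Ndufa6 and Neb were named after their values were seen. The comparison, the lists and the pairs were chosen with earlier results of these data known. Of 32764 symbols, 23351 were matched to GENCODE M21. Some genes that the rule would name are not reported here.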

Additional observations from a re-analysis of the deposited data

Results flagged for a closer look

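Of 136 groups of 5 libraries (genes, pairs of forms and the muscle score), 15 held a library whose gap to the nearest other, divided by the range, was above Dixon's critical value of 0.71. That is 11%, where chance gives about 1 in 20. The values are given without a weighing of explanations.

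BAT library 4 accounted for 5 of them. It was low at 2580 CPM for Acadl (others 2702 to 2741), 1420 CPM for Idh3a (1620 to 1668), 321.9 CPM for Cox7a1 (391.6 to 404.7) and 109.8 CPM for Bckdk (116.0 to 117.4). Its log2 ratio of Cox7a2 to Cox7a1 was 0.052, against -0.24 to -0.17 in the others. It also had the lowest Ucp1 of the 5, while Hadhb, Cpt1b and Cox8b were not lowest in it.

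Liver library 5 accounted for 5. It had the lowest muscle score, 1.43 against 2.98 to 3.499, and was high in Pck1 at 3219 CPM (1643 to 2066) and in Cox8b at 0.651 CPM (0.348 to 0.429). Its log2 ratio of Ldha to Ldhb was 8.92 (8.39 to 8.53) and that of Cideb to Cidea 8.16 (9.28 to 9.70). Liver library 2 was low in the urea cycle gene Cps1, at 4551 CPM against 6773 to 7147. Liver library 4 had a Mat1a to Mat2a log2 ratio of 4.64 (4.80 to 4.85). Among genes near the limit of detection in BAT, Fgf21 was at 0.241 CPM in library 5 (0.189 to 0.202), Fgfr4 at 0 in library 1 (0.0241 to 0.0288) and Clec4f at 0.0241 CPM in library 5, where the others were at 0.

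The difference between liver and BAT itself differed between FGF21 KO and WT for 4 genes by edgeR's test of the interaction at an adjusted p under 0.01. On the log2 scale, FGF21 KO minus WT, the interaction was -4.05 for a row named only by a sequence identifier, 1.53 for Cidea, -2.93 for Cmya5 and 1.03 for Npr2.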

How the results depend on the processing

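No paired analysis was possible because the labels link no liver library to a BAT library of the same mouse. The 11203 calls in WT stayed within 1.5 times under every alternative but the test against a 2-fold change, which called 5662 (2704 in liver, 2958 in BAT). Leaving out 1 library gave 10714 to 11068 calls, 5267 to 5529 in liver and 5433 to 5564 in BAT. The 2 settings added after the data were seen were the counts without identifier rows (10638) and without 3 libraries high in muscle genes (9766). The interaction count of 4 became 33 at an adjusted p under 0.05, 57 in DESeq2, 1 with RLE factors and 0 with the muscle score as a covariate. Leaving out 1 of the 20 libraries gave 0 to 12: 12 without WT liver 2, 7 without WT liver 5 or FGF21 KO liver 5, 5 without FGF21 KO liver 1, 2 without FGF21 KO BAT 2, 1 without WT BAT 5 or FGF21 KO liver 2 and none without any other. The 23 pairs of forms past an adjusted p of 0.05 were 23 with a prior count of 0.5 and with each library left out, which groups that do not overlap fix, so this says nothing of stability. The muscle score difference ran from 0.39 to 0.99.

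Of 4705 values for 215 named genes, 4592 kept direction and side of the threshold, 70 no longer passed it, 22 newly passed it and 21 changed sign. Most sign changes were in the FGF21 KO libraries, where muscle genes lay on the BAT side: Acta1 (-2.37), Actn3 (-1.91), Ckm (-2.22), Myh1 (-2.59), Myh4 (-2.16), Mylpf (-1.77), Pvalb (-2.10), Tnnc2 (-2.18), Tnni2 (-2.26), Tnnt3 (-2.28), the list median (-2.20) and Cox6a2 (-1.69, and -0.27 in WT with the muscle covariate). With 1 library left out Klb ran from -0.13 to 0.10, Ppara from -0.11 to 0.11, Pygm from -0.38 to 0.041 and Pygl/Pygm from -0.082 to 0.40. Klb and Ppara turned positive without liver 2, Ppara also to 0.000405 with RLE factors, 0.00734 with all 20 WT libraries, 0.036 with the muscle covariate, 0.035 without liver 3, 0.012 in FGF21 KO and 0.000403 in DESeq2. Pygm and Pygl/Pygm turned without liver 5, and the ratio was -0.00143 without BAT 3. The median of fatty acid uptake was -0.0197 with library size alone. The causes were not tested. Of 1848 list counts, 59 moved by over 1.5 times. Near 0 counts in 1 tissue, depth limits folds to bounds.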

Other observations

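Some genes varied between the libraries of 1 tissue, and those given here were chosen after their values were seen. In BAT, Dio2 was at 22.7, 79.6, 170.5, 36.5 and 182 CPM in libraries 1 to 5. Cyp2e1, an ethanol and fatty acid oxidizing cytochrome, was at 24.5, 17.9, 89.5, 227 and 181 CPM in the same libraries, while Alb stayed between 6.89 and 12.9 CPM. The source of these reads was not tested. Fasn was at 11623 and 11924 CPM in BAT libraries 3 and 5 and at 19170.2 to 21022 CPM in the others.

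In liver, Nr0b2, a gene induced by bile acids, ran from 359 reads in library 5 to 1580 in library 1. Library 2 was the lowest liver library for Cps1, Fasn, Klb and Ppara. Rplp2 was the cytosolic ribosomal protein gene furthest on the BAT side, with a log2 difference of -1.68 ± 0.14 (edgeR, adjusted p = 1.14e-07), against a median of 0.46 over the cytosolic list.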
